A study of Mus musculus with 2 samples.

Results

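Mesothelial and epicardial-like cells were examined in single-cell RNA profiles of cultured neonatal mouse heart base tissue. A barcode counted as a cell when it held at least 8000 UMIs (unique molecular identifiers, each standing for 1 captured RNA molecule) and at most 20% mitochondrial UMIs. A cell was taken as mesothelial-like when at least 1 UMI was read for at least 5 of 8 genes, namely the keratins Krt8, Krt18 and Krt19, the surface proteins Msln, Upk3b and Lrrn4, and the transcription factors Bnc1 and Wt1. This rule selected 1189 of 19575 cells. The dorsal library contributed 275 of its 8926 cells and the ventral library 914 of its 10649 cells. Since these 8 genes chose the cells, their levels are given below as a description and not as a finding.

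The dorsal cells came from the part of the heart base with the pulmonary veins, the cardiac ganglia and the sinoatrial node. The ventral cells came from the part with the outflow tract base, the pulmonary artery and the proximal aorta. Both pools were made from 15 hearts of C57Bl6 pups of both sexes at 3 days of age, with no genetic alteration or treatment named in the labels. Both were grown as adherent cultures for 5 days before trypsin release and 10x Genomics 3' capture. Each domain is 1 pool, 1 culture and 1 library, so dissection, culture and library cannot be told apart, and no test between domains was possible. Every interval below is a 95% interval for counting error alone.

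Mesothelium is the single-layered lining of the pericardial, pleural and peritoneal cavities, and the epicardium is the mesothelium that covers the heart. These cells sit on a basement membrane, carry keratins and a microvillous surface, and also express mesenchymal genes such as vimentin. During heart development epicardial cells can lose their epithelial junctions and move into the muscle wall as fibroblasts and mural cells, and they secrete growth factors and retinoic acid. Mesothelial cells in culture are also known sources of acute phase proteins and chemokines.

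The libraries held 246920028 dorsal and 264822916 ventral UMIs over 6794880 barcodes and 28692 genes each. The mesothelial-like cells had a median of 30775 UMIs and 5396 genes in the dorsal library and of 28888.5 UMIs and 5216.5 genes in the ventral library. The other cells had lower medians, at 22559 and 20946 UMIs. Levels are given as CPM, a gene's UMIs scaled to the total UMIs summed over the cells named, and these totals were 9003138 UMIs in the dorsal and 28952508 in the ventral mesothelial-like cells. Of all cell barcodes, 22 were called in both libraries. The doublet caller Scrublet marked 17 dorsal (6.18%) and 102 ventral (11.2%) mesothelial-like cells, against 7.17% and 4.54% of the other cells.

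The label was checked against markers of other cell types that the pools could hold. Markers of airway or foregut epithelium, the other keratin-bearing tissue near these dissections, summed to 1.0 CPM over 8 genes in both the dorsal and the ventral mesothelial-like cells, and 0 of either had 3 or more of them. Cdh1, which encodes E-cadherin, and the lung and foregut factors Nkx2-1 and Foxa2 were at 0 in the dorsal mesothelial-like cells, and Nkx2-1, Trp63 and Krt5 were at 0 in the ventral ones. Schwann and glial markers summed to 8.44 CPM in dorsal and 6.67 CPM in ventral mesothelial-like cells. Endothelial markers summed to 35.9 and 28.6 CPM, with Pecam1 at 0.56 and 0.41 CPM. Fibroblast markers such as Dcn and Col1a2 were read with 3 or more genes in 100% of the dorsal and 100% of the ventral mesothelial-like cells, as they were in 99.4% of the other cells in each library.

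Markers of other lineages were not evenly spread over the selected cells. Macrophage markers summed to 213 CPM in dorsal and 82.4 CPM in ventral mesothelial-like cells, and 22 dorsal and 19 ventral cells carried 3 or more of the 8. Cardiomyocyte markers summed to 355 and 828 CPM. Most of these UMIs came from Tnnt2, the gene of cardiac troponin T, which had 318 CPM in dorsal and 756 CPM in ventral mesothelial-like cells. The signal was not Tnnt2 alone, since 44 dorsal (16%) and 64 ventral (7%) cells carried 3 or more of the 8 cardiomyocyte markers. Among the other cells these shares were lower, at 7.44% and 2.94%. Mural markers summed to 344 and 3669 CPM, and Acta2 alone gave 306 and 3607 CPM. Of the 8 mural markers, 3 or more were carried by 13 dorsal (4.73%) and 121 ventral (13.2%) cells, against 17.5% and 37.5% of the other cells. In total 66 dorsal and 96 ventral mesothelial-like cells carried 3 or more markers of another class among macrophage, endothelial, glial, cardiomyocyte and airway classes, and results that lean on them are given again without them. Mural and fibroblast markers were not part of this count.

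The mesothelial-like cells formed 3.08% (2.73 to 3.46) of dorsal and 8.58% (8.06 to 9.13) of ventral cells, a log2 ratio of -1.48 (-1.67 to -1.29). When each cell was thinned to 8000 UMIs before the 8 genes were read, 73 dorsal and 512 ventral cells passed, and the shares became 0.818% and 4.81%. With 4 or more genes required, the shares were 4.90% and 9.57%, and with 6 or more they were 1.69% and 6.99%. The ventral share was the higher one under each of these 3 rules, and its distance from the dorsal share depended on where the line was drawn.

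**Figure D1:**
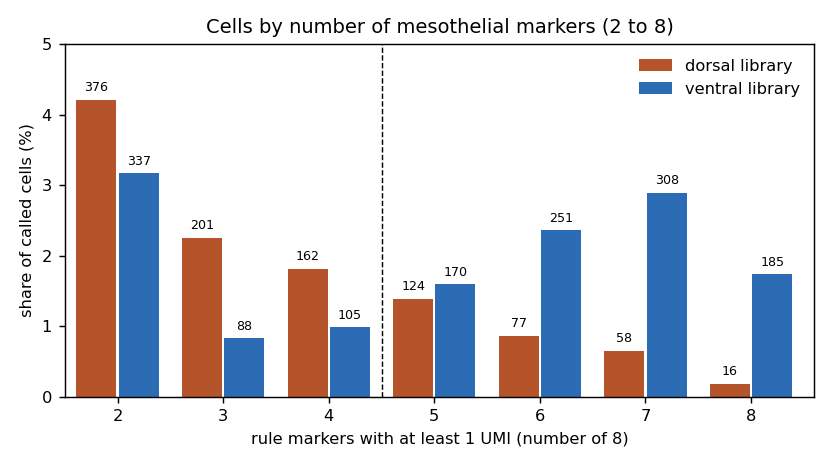
Share of called cells (%) by the number of the 8 mesothelial genes with at least 1 UMI, for 2 to 8 genes, with dorsal bars left of ventral bars and cell numbers above them; the dashed line marks the selection at 5. Dorsal cells thin out step by step from 376 cells with 2 genes to 16 with 8, whereas ventral cells number 88 at 3 genes and form a separate peak of 308 at 7.

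The number of mesothelial genes per cell was distributed differently in the libraries. In the dorsal library 201 cells had 3 of the genes, 162 had 4, 124 had 5, 77 had 6, 58 had 7 and 16 had 8, with no gap at the line. In the ventral library 88 cells had 3, 105 had 4, 170 had 5, 251 had 6, 308 had 7 and 185 had 8, so that the selected cells stood apart from the bulk with 0 or 1. Cells with 5 genes, just inside the line, made up 45.1% of the dorsal and 18.6% of the ventral mesothelial-like cells, and cells with 8 made up 5.82% and 20.2%. Just outside the line, dorsal cells with 4 genes had 28716.5 UMIs at the median and ventral ones 22702, against 31325 and 24173.5 in cells with 5.

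Among the genes of the rule, Msln had the highest counts. Msln, which encodes the surface glycoprotein mesothelin, had 521 CPM in dorsal and 986 CPM in ventral mesothelial-like cells, and 15.7 and 10.5 CPM in the other cells. The keratins were lower: Krt8 had 54.9 and 177 CPM, Krt18 69.4 and 165 CPM, and Krt19 20.7 and 47.2 CPM in dorsal and ventral mesothelial-like cells. The uroplakin Upk3b had 95.2 and 340 CPM, and the leucine-rich repeat protein Lrrn4 92.9 and 255 CPM. Bnc1, a zinc finger factor of mesothelium and germ cells, had 50.1 and 65.6 CPM. Wt1, the epicardial and mesothelial factor named for Wilms tumour, had 85.7 CPM in dorsal and 88.0 CPM in ventral mesothelial-like cells. Over all selected cells, the keratins, Upk3b and Lrrn4 were thus at least 2-fold lower in the dorsal library. Msln had a log2 ratio of -0.92 and Wt1 one of -0.04 (-0.16 to 0.08). In cells with 5, 6, 7 and 8 genes the ratio of Krt8 was -0.80, -0.76, -1.05 and -1.64. That of Krt18 was -0.56, -0.86, -0.55 and -1.02, and that of Lrrn4 -1.50, -1.02, -0.92 and -1.16. With 4 or more genes required, Krt8 had -0.26 and Krt18 -0.32. The ratio of Krt19 was -1.19 over all selected cells but 0.60 with 4 or more genes required and 1.94 in cells with exactly 5. A few cells outside the selection held most of the remaining keratin: 26 dorsal and 28 ventral other cells with 10 or more keratin UMIs carried 87.2% and 80.9% of the other cells' Krt8 UMIs, and 5 and 2 of them had 3 or more airway epithelium markers.

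Many genes outside the rule separated the mesothelial-like cells from the other cells in the same way in both libraries. Of 5978 genes at 20 CPM or more in mesothelial-like cells of either library, 239 (4%) exceeded the other cells by 2-fold or more in both libraries and 95 (1.59%) lay 2-fold or more below them. The 239 include the 8 genes of the rule, which chose the cells. The limit leaves out genes low in mesothelial-like cells, so the numbers above and below the other cells cannot be weighed against each other. Taken by library, 306 (5.12%) lay above and 151 (2.53%) below in dorsal cells, and 404 (6.76%) above and 193 (3.23%) below in ventral cells. The median log2 ratio over these genes was 0.06 for dorsal and 0.13 for ventral cells. With the genes of the rule left out, the largest ratios that held in both libraries belonged to Prokr2, Upk1b, Tm4sf5, Gpm6a, Lsr, Hpgd, Stk26, Folr1, Krt7, Vnn1, Gsta4 and Slc39a8.

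Prokr2, the G protein-coupled receptor for prokineticin-2 (ENSMUSG00000050558, chr2:132337733-132385447, minus strand, GRCm38), had 62.9 CPM (57.8 to 68.3) in dorsal and 57.9 CPM (55.1 to 60.7) in ventral mesothelial-like cells. The other cells had 0.85 and 0.67 CPM, which gives log2 ratios of 6.21 and 6.43. After thinning to 8000 UMIs, 29.5% of dorsal and 30.5% of ventral mesothelial-like cells had a Prokr2 UMI, against 0.483% and 0% of macrophage-marked cells. Prokr2 was therefore high in both libraries and close to equal between them, with a dorsal over ventral log2 ratio of 0.12 (-0.02 to 0.26).

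Upk1b, a tetraspanin-type uroplakin first known from bladder urothelium (ENSMUSG00000049436, chr16:38773184-38800328, minus strand, GRCm38), had 104 CPM in dorsal and 383 CPM in ventral mesothelial-like cells, and 1.46 and 3.02 CPM in the other cells. Its log2 ratios over the other cells were 6.15 and 6.99. At 8000 UMIs it was read in 45.1% of dorsal and 82.8% of ventral mesothelial-like cells, against 0% and 2.8% of macrophage-marked cells. Tm4sf5, a membrane protein of the L6 family, had 33.7 and 25.2 CPM against 0.48 and 0.30 CPM in the other cells. The neuronal-type membrane glycoprotein Gpm6a had 109 and 265 CPM against 4.46 and 4.64 CPM.

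Enzymes and transporters were among the rest of these 12. Hpgd, which breaks down prostaglandins, had 135 CPM in dorsal and 40.1 CPM in ventral mesothelial-like cells, against 9.59 and 0.53 CPM in the other cells. Folr1, a folate receptor, had 119 and 167 CPM against 9.36 and 9.63 CPM. Vnn1, which releases cysteamine from pantetheine, had 118 and 109 CPM against 11.3 and 5.51 CPM. The glutathione transferase Gsta4 had 92.7 and 206 CPM against 9.36 and 4.79 CPM, and the zinc transporter Slc39a8 had 68.9 and 86.4 CPM against 7.02 and 2.45 CPM. All 5 exceeded the other cells by a log2 ratio of at least 3.29 in each library.

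The genes with the lowest ratios to the other cells included genes of muscle, macrophages and vessels. The heart muscle genes Actc1 (4.0 CPM in dorsal and 1.55 CPM in ventral mesothelial-like cells) and Nppa (16.1 and 2.18 CPM) lay at least 3.61 log2 units below the other cells in both libraries. The complement gene C1qa of macrophages had 5.55 and 1.28 CPM against 55.8 and 39.0 CPM. Of the 2 macrophage markers at 20 CPM, Csf1r and Lyz2, 1 was at least 2-fold higher and 1 lower than in the other dorsal cells. In ventral cells 0 were higher and 1 was lower. Srpx2, the ephrin receptor Epha3 and the vessel factor Angpt2 were lower by 3.04 log2 units or more in both libraries.

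A list of mesothelial genes that does not include the rule's genes was followed in the same cells. Of its 24 genes, 17 reached 20 CPM in mesothelial-like cells, a limit that leaves out genes low in these cells, so the numbers that follow describe those genes and not the list. Of the 17, 12 exceeded the other cells by 2-fold or more in both libraries, and the median log2 ratio was 2.07 for dorsal and 4.28 for ventral cells. Ezr encodes ezrin, which ties microvilli to the actin cortex, and had 151 CPM in dorsal and 565 CPM in ventral mesothelial-like cells against 26.7 and 20.7 CPM. Rspo1, a secreted enhancer of Wnt signalling, had 96.3 and 236 CPM against 20.6 and 7.54 CPM. The matrix protein Efemp1 had 178 and 217 CPM against 23.1 and 20.02 CPM. Calb2, the calretinin gene used in pathology for human mesothelium, and the intelectin Itln1 had 0 UMIs in mesothelial-like cells of both libraries, which allows up to 3 counts in each sum. The other genes under the limit were Cldn15, Muc16 (1.89 and 10.4 CPM), Dmkn (16.9 and 1.55 CPM), Prg4 (9.44 and 1.21 CPM) and Podxl (0.89 and 0.83 CPM).

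Between domains, this list had a median below 0. The count of genes at least 2-fold apart between dorsal and ventral mesothelial-like cells was 246 of 5978 on the dorsal side (4.12%) and 304 on the ventral side (5.09%), with a median log2 ratio of -0.03 over all of them. In the other cells 293 of 5786 genes lay on the dorsal side (5.06%) and 290 on the ventral side (5.01%). Of the 17 mesothelial genes, 2 reached 2-fold on the dorsal side, C3 and Clu, and 8 on the ventral side. Crb2 was among the 8 and reached 20 CPM through the ventral cells alone. The list's median log2 ratio was -0.52 in mesothelial-like cells and 0.32 in the other cells. In mesothelial-like cells it was -0.07 when the rule was read after thinning and -0.21 with 6 or more genes required. It was -0.88 in cells with all 8, so its size depended on the selection. Krt7, a keratin of simple epithelia, had 28.9 CPM in dorsal and 144 CPM in ventral mesothelial-like cells. The caveolin gene Cav1 had 71.1 and 297 CPM, and the growth factor-binding protein Igfbp6 had 73.8 and 195 CPM.

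Genes of epithelial junctions and polarity also had a median below 0. Of 29 genes, 11 reached 20 CPM, 0 reached 2-fold on the dorsal and 5 on the ventral side, and the median log2 ratio was -0.87. Cdh3, Cgn, Jup, Pkp2, Pkp4, Crb2 and Pard6b reached the limit through the ventral cells alone, so the count and the median rest partly on it. P-cadherin (Cdh3) had 8.55 CPM in dorsal and 43.3 CPM in ventral mesothelial-like cells, plakoglobin (Jup) 14.2 and 56.9 CPM, and the apical polarity gene Crb2 7.44 and 27.5 CPM. The tight junction genes F11r (85.5 and 99.2 CPM) and Tjp1 (39.3 and 44.2 CPM) lay within 2-fold. The other cells had a median of -0.73 over the same 11 genes, a value close to that of the mesothelial-like cells. Claudin genes were sparse, with Cldn15 at 13.2 and 18.4 CPM and Cldn3 at 17.1 and 9.81 CPM, and Cdh1 was at 0 dorsal UMIs and 0.14 CPM in ventral cells.

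Transcription factors of the epicardium were near equal in both libraries. Of 20 such genes, 9 reached 20 CPM, 2 reached 2-fold on the dorsal and 0 on the ventral side, and the median log2 ratio was 0.08, against 0.09 in the other cells. Tbx18, a T-box factor of the embryonic epicardium and sinus horns, had 38.2 CPM in dorsal and 33.2 CPM in ventral mesothelial-like cells, and 12.4 and 11.6 CPM in the other cells. Gata6 had 286 and 338 CPM against 81.8 and 111 CPM. Tcf21, which marks the epicardium and cardiac fibroblasts, had 46.8 and 65.6 CPM, below the 58.1 and 111 CPM of the other cells. At 8000 UMIs, Wt1 was read in 49.8% of dorsal and 48.0% of ventral mesothelial-like cells, Tbx18 in 28.7% and 22.5%, and Tcf21 in 25.5% and 33.2%.

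The 2 factors on the dorsal side were Osr1 and Klf4. Osr1, a zinc finger factor of lateral plate mesoderm, had 320 CPM (308 to 332) in dorsal and 105 CPM (101 to 108) in ventral mesothelial-like cells. Klf4 had 146 and 35.3 CPM, log2 ratios of 1.61 for Osr1 and 2.05 for Klf4, and in the other cells these ratios were 1.02 and 1.45. Isl1, the LIM-homeodomain factor at the centre of the study, had 0.56 CPM in dorsal and 1.04 CPM in ventral mesothelial-like cells. Tbx20 (4.55 and 15.5 CPM), Gata4 (14.7 and 17.4 CPM) and Gata5 (1.44 and 7.63 CPM) stayed under 20 CPM. Factors that mark position in the lung, foregut and body wall were mostly low: 20 of 24 were under 20 CPM, and of the 4 others Hoxa5 was at least 2-fold apart, with 26.2 CPM in dorsal and 8.39 CPM in ventral mesothelial-like cells. Its log2 ratio was 1.64 over all selected cells but -0.018 (-0.60 to 0.53) in cells with 6 genes of the rule. Hoxa5 reached 20 CPM through the dorsal cells alone.

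The genes of both main retinoic acid-producing enzymes were higher than in the other cells. Aldh1a2, the main retinoic acid-producing enzyme of the epicardium, had 64.3 CPM (59.2 to 69.8) in dorsal and 64.6 CPM (61.7 to 67.6) in ventral mesothelial-like cells, and 15.3 and 1.94 CPM in the other cells. Aldh1a1, another enzyme for the same step, had 194 and 338 CPM against 36.7 and 113 CPM. Of 17 retinoic acid genes 5 reached 20 CPM, 0 of them were 2-fold apart between domains, and the median log2 ratio was -0.03.

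Secreted growth factors were mixed. Of 29 genes, 20 reached 20 CPM, with 4 past 2-fold on the dorsal and 5 on the ventral side and a median log2 ratio of 0.04. Igf2 and Vegfa reached the limit through the dorsal cells alone, and Bmp4 and Tgfb3 through the ventral cells alone. The dorsal 4 were Igf2 (85.3 CPM dorsal, 15.6 CPM ventral), Vegfa (63.4 and 16.8 CPM), Mdk (346 and 68.5 CPM) and the Wnt enhancer Rspo3 (61.5 and 22.2 CPM). On the ventral side were Fgf2 (34.7 and 88.2 CPM), Bmp4 (16.3 and 60.5 CPM), Tgfb2 (22.5 and 97.0 CPM), Tgfb3 (16.9 and 45.6 CPM) and Rspo1. Of these 9 genes Rspo1 was the one whose ratio had the opposite sign in the other cells, at -1.30 in mesothelial-like cells and 1.45 in the other cells. Cxcl12, the chemokine that draws cells through its receptor Cxcr4, was lower in mesothelial-like cells, at 110 and 201 CPM against 497 and 649 CPM.

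Genes of the epithelial to mesenchymal transition were abundant and did not set the mesothelial-like cells apart as a group. Of 24 genes 21 reached 20 CPM. Relative to the other cells, the median log2 ratio was -0.29 for dorsal and -0.12 for ventral cells, and 1 gene, Postn, was at least 2-fold lower in both. Postn, the matrix protein periostin of activated fibroblasts, had 42.3 CPM in dorsal and 54.8 CPM in ventral mesothelial-like cells, against 300 and 340 CPM. Vimentin (Vim) had 1926 and 2834 CPM against 1898 and 2867 CPM, and Twist1 73.0 and 68.8 CPM against 46.7 and 44.7 CPM. Basement membrane genes were within 2-fold between domains for 14 of the 14 that reached 20 CPM, with a median log2 ratio of -0.45, and the linker Nid2 stood out over the other cells at 161 and 143 CPM against 23.6 and 62.5 CPM.

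**Figure D2:**
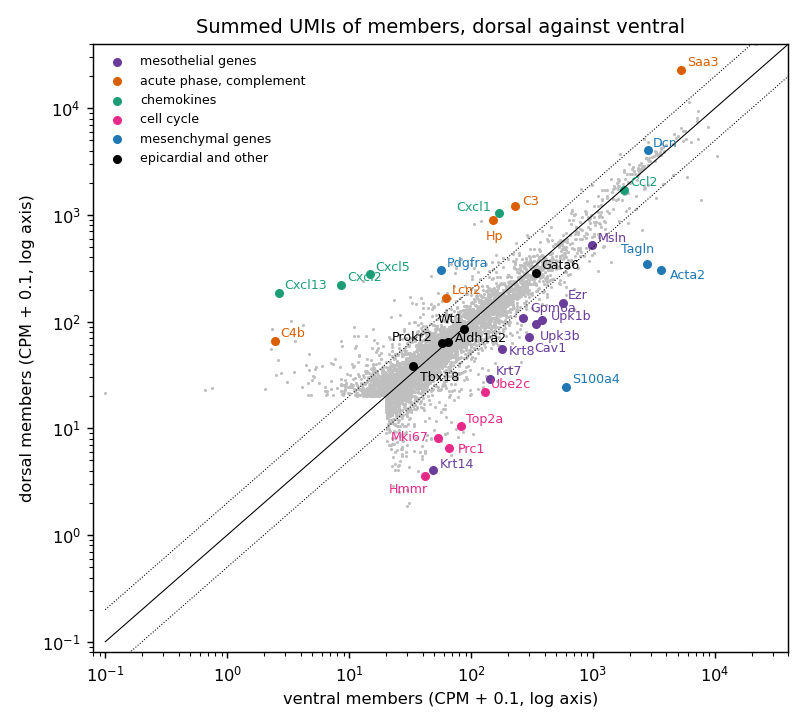
Summed level of each gene at 20 CPM or more in mesothelial-like cells of either library, dorsal (vertical) against ventral (horizontal), both in CPM plus 0.1 on log axes; the solid line marks equal levels and the dotted lines 2-fold. Saa3 lies at the top right above the line, Cxcl13, Cxcl2, Cxcl5 and C4b lie far to the left while Ccl2 lies on the line, S100a4 and the cell cycle genes lie below, and Wt1, Prokr2, Aldh1a2, Tbx18 and Gata6 lie near the line.

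Acute phase and complement genes lay on the dorsal side. Of 13 genes, 8 reached 20 CPM, 5 reached 2-fold on the dorsal and 0 on the ventral side, and the median log2 ratio was 1.77. C4b reached the limit through the dorsal cells alone, so the count and the median rest partly on it. The other cells gave 2.35 for the same 8 genes, so the mesothelial-like cells followed the direction of their libraries. Saa3, an acute phase serum amyloid A protein made outside the liver (ENSMUSG00000040026, chr7:46711998-46715700, minus strand, GRCm38), had 22973 CPM in dorsal and 5307 CPM in ventral mesothelial-like cells, and 4299 and 401 CPM in the other cells. Saa3 thus made up 2.3% of dorsal and 0.531% of ventral mesothelial-like UMIs. Its dorsal over ventral log2 ratio was 2.11 (2.10 to 2.12) in mesothelial-like cells and 3.42 in the other cells.

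Saa3 was also concentrated in the mesothelial-like cells of both libraries. The dorsal ones held 3.93% of the library's cell UMIs and 17.9% of its Saa3 UMIs, and the ventral ones held 11.4% of the UMIs and 63.1% of the Saa3 UMIs. Single dorsal cells had a median of 21058.5 CPM, with 1767 at the 10th and 59740 at the 90th percentile. Single ventral cells had a median of 2102 CPM, with 39.6 at the 10th and 16964 at the 90th percentile. The ventral cells therefore ranged widely, and their summed level lay above their median cell.

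C3, the central complement component (ENSMUSG00000024164, chr17:57203970-57228136, minus strand, GRCm38), had 1202 CPM (1180 to 1225) in dorsal and 230 CPM (225 to 236) in ventral mesothelial-like cells, against 370 and 53.7 CPM in the other cells. A UMI was read at 8000 UMIs in 97.5% of dorsal and 72.5% of ventral mesothelial-like cells, with 41.1% and 13.3% in macrophage-marked cells of the same depth. C4b, another complement component, had 65.6 and 2.35 CPM, a log2 ratio of 4.8 (4.44 to 5.19). Haptoglobin (Hp) had 898 and 152 CPM, and it came from few cells: the median cell had 0 CPM in both libraries, the 90th percentile was 2156 and 123 CPM, and the highest cells reached 19391 and 20153 CPM. Lcn2, which binds bacterial iron carriers, had 168 and 62.1 CPM, below the 442 and 427 CPM of the other cells. In cells with all 8 genes of the rule the ratios of Hp and Lcn2 were -0.38 and -1.93, with 16 dorsal cells in that group.

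Saa3 and C3 were high together in dorsal mesothelial-like cells, and the 250 bases before the RefSeq start of each are shown because both are textbook targets of C/EBP factors. Both lie on the minus strand of GRCm38.p6, with Saa3 at chr7:46715677-46715926 and C3 at chr17:57228137-57228386, and are written 5′ to 3′ along the gene. Capitals mark matches to the C/EBP-type letters TTNNGNAA on either strand.
Saa3 promoter: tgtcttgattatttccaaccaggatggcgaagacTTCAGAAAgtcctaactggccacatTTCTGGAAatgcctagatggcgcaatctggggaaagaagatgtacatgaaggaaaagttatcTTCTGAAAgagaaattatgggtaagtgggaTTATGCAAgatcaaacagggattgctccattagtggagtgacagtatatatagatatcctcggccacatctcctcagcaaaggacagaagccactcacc
C3 promoter: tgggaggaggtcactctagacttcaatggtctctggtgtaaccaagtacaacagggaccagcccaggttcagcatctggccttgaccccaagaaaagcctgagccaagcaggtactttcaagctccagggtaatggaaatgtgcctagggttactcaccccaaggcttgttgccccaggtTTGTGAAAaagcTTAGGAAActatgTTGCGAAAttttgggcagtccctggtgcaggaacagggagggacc
The Saa3 window held 4 such positions, 216 to 209, 191 to 184, 129 to 122 and 99 to 92 bases before the start, and the C3 window held 3, at 70 to 63, 58 to 51 and 45 to 38 bases. At least 1 position occurred in 36.8% and at least 3 positions in 2.61% of 32851 RefSeq windows of the same length. These matches describe letters and say nothing of which factor was bound.

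Chemokines and cytokines were also on the dorsal side, with a smaller median in the mesothelial-like cells than in the other cells. Of 22 genes 16 reached 20 CPM, 8 reached 2-fold on the dorsal and 2 on the ventral side, and the median log2 ratio was 1.0, against 2.34 in the other cells. Cxcl2, Cxcl5, Cxcl10, Cxcl13, Il6, Csf3 and Tnfaip6 reached the limit through the dorsal cells alone. Cxcl13, which attracts B cells (ENSMUSG00000023078, chr5:95956951-95961068, plus strand, GRCm38), had 187 CPM in dorsal and 2.56 CPM in ventral mesothelial-like cells, a log2 ratio of 6.19 (5.85 to 6.55). At 8000 UMIs it was read in 25.8% of dorsal and 1.42% of ventral mesothelial-like cells. The other cells had 11.2% and 1.25%, and macrophage-marked cells 7.73% and 0%. The neutrophil chemokines Cxcl5 (279 and 14.6 CPM), Cxcl2 (220 and 8.53 CPM) and Cxcl1 (1039 and 170 CPM) were higher in dorsal than in ventral mesothelial-like cells, and so were Csf3 (43.3 and 2.49 CPM) and Il6 (29.99 and 5.08 CPM). Against the other dorsal cells, 7 of the 16 genes were at least 2-fold lower and 1 higher, with a median log2 ratio of -0.83. In ventral cells 4 were lower and 4 higher, with a median of 0.03. At 8000 UMIs Cxcl5 was read in 38.9% of dorsal mesothelial-like and 42.3% of other dorsal cells. Cxcl2 was read in 39.3% and 61.6%.

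Several chemokines did not share this direction in the mesothelial-like cells. Ccl2, the monocyte chemokine, had 1729 CPM in dorsal and 1809 CPM in ventral mesothelial-like cells, a log2 ratio of -0.07, whereas in the other cells it had 3320 and 1118 CPM, a ratio of 1.57. Cxcl16 had 179 and 171 CPM. Ccl20 (23.0 and 72.5 CPM) and the macrophage growth factor gene Csf1 (71.2 and 146 CPM) were at least 2-fold lower in dorsal mesothelial-like cells. The difference between these ratios in mesothelial-like and other cells was not tested.

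**Figure D3:**
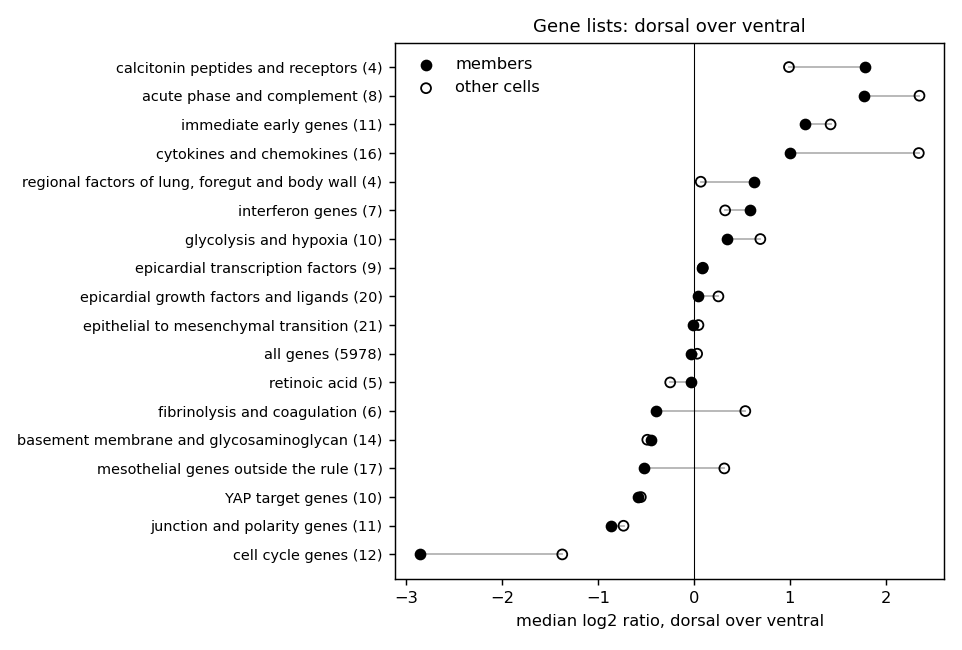
Median log2 ratio of dorsal over ventral for gene lists with at least 4 genes at 20 CPM or more (number in brackets), without the rule's genes and the marker lists of other cell classes, in mesothelial-like cells (filled) and in the other cells (open). Acute phase, chemokine, calcitonin and immediate early lists lie to the right in both kinds of cell, cell cycle genes lie at -2.85 and -1.37, left of the other lists drawn, and mesothelial genes lie at -0.52 in mesothelial-like cells and at 0.32 in the other cells.

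Of the 12 largest dorsal ratios 3 belonged to genes that were far higher in macrophage-marked cells. Arg1, Ccl12 and Wfdc17 had 21.5, 24.0 and 93.5 CPM in dorsal mesothelial-like cells, and 1099, 880 and 7944 CPM in dorsal macrophage-marked cells. Arg1, an arginine-degrading enzyme gene, was read in 9 dorsal mesothelial-like cells and in 0 ventral ones, so its log2 ratio is at least 7.70 against the limit of 3 counts. Without Scrublet-marked barcodes the Arg1 ratio was at least 2.8, and that of Ccl12 was 0.84 and of Wfdc17 2.13, in place of 5.19 and 4.51. Without the cells that carried 3 or more markers of another class, the Arg1 ratio was at least 2.98, that of Ccl12 2.40 and that of Wfdc17 3.31. The part that macrophage RNA had in these ratios was not tested.

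Scg2, Ndufa4l2, Car6 and Cdsn, also among these 12, were lower in dorsal macrophage-marked than in dorsal mesothelial-like cells. Scg2, a granin of secretory vesicles, had 240 CPM in dorsal and 12.8 CPM in ventral mesothelial-like cells, a log2 ratio of 4.23 (4.07 to 4.39), while the other cells were nearly level at 21.4 and 18.6 CPM. At 8000 UMIs Scg2 was read in 36.4% of dorsal and 5.25% of ventral mesothelial-like cells, against 2.90% and 0.699% of macrophage-marked cells. The other cells had 4.90% and 7.35%, so the ventral mesothelial-like share lay below that of the other ventral cells. Ndufa4l2, a mitochondrial protein gene induced by hypoxia, had 85.4 and 2.21 CPM, the carbonic anhydrase Car6 55.8 and 2.18 CPM, and the corneodesmosin gene Cdsn 22.5 and 0.55 CPM. For Ndufa4l2 and Car6 the other cells had ratios of 4.37 and 4.52, close to the 5.27 and 4.68 of the mesothelial-like cells.

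Calca, which encodes calcitonin and the neuropeptide CGRP (ENSMUSG00000030669, chr7:114631478-114636357, minus strand, GRCm38), had 102 CPM in dorsal and 3.25 CPM in ventral mesothelial-like cells, against 24.0 and 0.41 CPM in the other cells. At full depth a Calca UMI was present in 81 of 275 dorsal mesothelial-like cells (29.5%) and in 34 of 914 ventral ones (3.72%). Most dorsal cells with a Calca UMI lay outside the selection: of 843 such cells, 575 had 0 or 1 of the rule's genes. In the ventral library 25 of 77 did. At 8000 UMIs these shares were 21.8% and 2.08%, against 5.02% and 0.236% of the other cells and 2.9% and 0% of macrophage-marked cells. Of 9 genes of calcitonin peptides and receptors 4 reached 20 CPM, Calca and Adm2 through the dorsal cells alone and Ramp1 through the ventral cells alone. Their median log2 ratio was 1.78, against 0.99 in the other cells, and it was 3.44 with 6 or more genes of the rule required and 4.25 after thinning. The adrenomedullin gene Adm had 169 and 62.1 CPM and Adm2 20.5 and 4.73 CPM. Ramp1, a subunit of the CGRP receptor, had 11 and 20.9 CPM, and its partner Calcrl 2.55 and 1.11 CPM.

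Stress, hypoxia and interferon genes were described as 3 lists. Of 12 immediate early genes 11 reached 20 CPM and 6 reached 2-fold on the dorsal and 0 on the ventral side, with a median log2 ratio of 1.15, against 1.42 in the other cells. Egr1 had 250 and 102 CPM and Nr4a1 73.9 and 10.8 CPM. Of 13 glycolysis and hypoxia genes 10 reached 20 CPM, with Bnip3 (115 and 26.2 CPM) and Vegfa past 2-fold on the dorsal side and a list median of 0.34, which was -0.25 after thinning. Of 9 interferon genes 7 reached 20 CPM, with Ifit1 (36.8 and 15.3 CPM) and Ifit3 (20.3 and 7.32 CPM) past 2-fold on the dorsal side and Ifi27l2a (163 and 358 CPM) on the ventral side. Of the genes named from these lists, Nr4a1, Vegfa, Ifit1 and Ifit3 reached 20 CPM in the dorsal cells alone.

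On the ventral side the largest ratio belonged to S100a4, a calcium-binding protein of motile mesenchymal cells (ENSMUSG00000001020, chr3:90603771-90606045, plus strand, GRCm38). S100a4 had 24.5 CPM (21.4 to 28.0) in dorsal and 605 CPM (596 to 614) in ventral mesothelial-like cells, a log2 ratio of -4.62, against 17.5 and 182 CPM in the other cells. Acta2, smooth muscle actin (ENSMUSG00000035783, chr19:34241090-34255590, minus strand, GRCm38), had 306 and 3607 CPM, a ratio of -3.56, and 881 and 6094 CPM in the other cells. The median single cell had 64.2 CPM of Acta2 in dorsal and 2445 CPM in ventral mesothelial-like cells. Tagln, another smooth muscle gene, had 346 and 2745 CPM. Acta2 and Tagln were thus ventral in mesothelial-like and other cells alike, and lower in the mesothelial-like cells than around them. Pdgfra, the receptor that marks fibroblasts, had the opposite direction, with 303 CPM in dorsal and 56.9 CPM in ventral mesothelial-like cells.

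Cell cycle genes all lay on the ventral side. All 12 genes reached 20 CPM and were at least 2-fold lower in dorsal mesothelial-like cells, with a median log2 ratio of -2.85, against -1.37 in the other cells. The proliferation antigen gene Mki67 had 8.11 CPM in dorsal and 53.0 CPM in ventral mesothelial-like cells, the topoisomerase Top2a 10.3 and 81.8 CPM, and Ube2c, which ends mitosis, 22.0 and 131 CPM. With a cell called cycling at 3 or more of the 12 genes after thinning, 8 dorsal (2.91%, 1.26 to 5.65) and 202 ventral (22.1%, 19.4 to 24.9) mesothelial-like cells were cycling, against 3.39% of dorsal and 9.83% of ventral other cells. The mitotic genes Hmmr, Nusap1, Racgap1, Prc1 and Birc5 and the nucleotide reductase subunit Rrm2 made up 6 of the 12 largest ventral ratios. Cycling mesothelial-like cells were then left out of the count of mesothelial-like cells, while all cells stayed in each library's total. The ventral share of mesothelial-like cells became 6.69% and the log2 ratio of the shares -1.16.

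Krt14, Angptl7, Smpd3 and Nnat, also among these 12, were each read in a minority of mesothelial-like cells at 8000 UMIs. Krt14, a keratin of basal epithelia, had 4.0 CPM in dorsal and 48.2 CPM in ventral mesothelial-like cells, and at 8000 UMIs it was read in 2.91% and 16.6% of them, against 0% of macrophage-marked cells in both libraries. Krt5, its usual partner, had 0 UMIs in both. Angptl7, a secreted angiopoietin-like protein, had 5.55 and 68.3 CPM, and was read in 2.55% and 18.9% of cells at that depth, against 0.966% and 1.40%. The sphingomyelinase Smpd3 had 8.77 and 103 CPM and the imprinted proteolipid Nnat 1.89 and 31.0 CPM. Smpd3 was read in 8% of dorsal and 41.1% of ventral mesothelial-like cells at 8000 UMIs, and in 18.9% and 70.1% at full depth.

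Coagulation and mechanical response genes were followed as 2 further lists. Of 11 fibrinolysis and coagulation genes 6 reached 20 CPM, with 0 past 2-fold on the dorsal and 1 on the ventral side. Tissue plasminogen activator (Plat) had 81.4 CPM in dorsal and 90.8 CPM in ventral mesothelial-like cells. The median of that list was -0.39 in mesothelial-like and 0.54 in the other cells. Of 12 targets of the coactivator YAP 10 reached 20 CPM and 2 of them, Ankrd1 (19.8 and 78.2 CPM) and Crim1 (32.7 and 82.4 CPM), were at least 2-fold lower in dorsal mesothelial-like cells, with a median of -0.58 against -0.55 in the other cells. Ankrd1 reached the limit through the ventral cells alone.

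Levels were also followed over cells with 0 to 8 of the rule's genes, which places the selected cells beside their neighbours. In the dorsal library Upk1b had 28.0 CPM in cells with 4 genes, 51.3 with 5, 96.1 with 6, 203 with 7 and 178 with 8. In the ventral library it had 118, 169, 269, 406 and 616 CPM over the same steps. At matched gene number the dorsal level of Upk1b was thus still the lower one. Prokr2 had 24.3 CPM with 5, 67.1 with 6, 126 with 7 and 110 with 8 genes in the dorsal library, and 48.6, 52.3, 59.6 and 67.4 CPM in the ventral library, so that their order differed between cells with 5 and cells with 7.

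**Figure D4:**
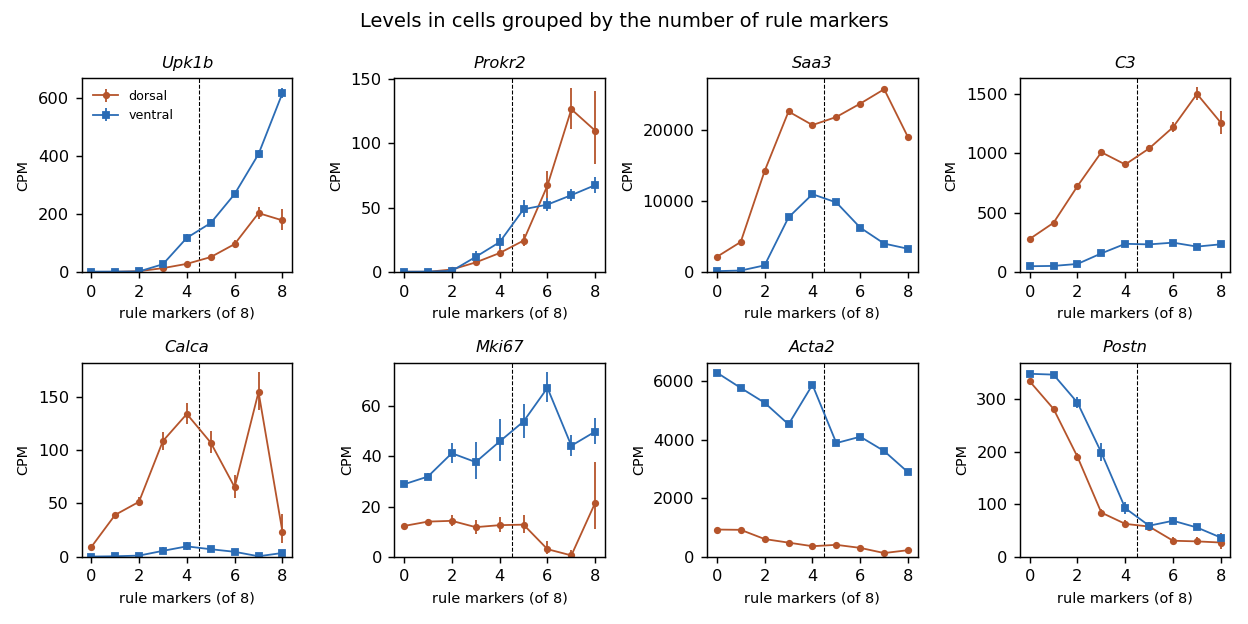
CPM of 8 genes in cells grouped by how many of the 8 mesothelial genes they carry (0 to 8), dorsal and ventral, with 95% counting intervals; the dashed line marks the selection at 5. Upk1b and Prokr2 are near 0 at 0 genes and higher in cells with more, dorsal Saa3 reaches 22583 CPM by 3 genes and ventral Saa3 peaks at 10947 CPM with 4, dorsal Acta2 and Postn of both libraries are lower in cells with more genes, and dorsal Calca is spread over cells with 1 to 7 genes.

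Saa3 followed another course. Dorsal cells had 2124 CPM with 0 genes, 14203 with 2, 22583 with 3, 21811 with 5 and 18951 with 8. Ventral cells had 122 CPM with 0 genes, 7685 with 3, 10947 with 4, 9784 with 5 and 3265 with 8. Saa3 was thus high in both libraries in cells just outside the line, and in the ventral library it was lower in the cells with the most mesothelial genes. C3 stayed between 1043 and 1502 CPM in dorsal cells with 5 to 8 genes and between 214 and 248 CPM in ventral ones. Scg2 had 137 CPM in dorsal cells with 3 genes, 205 with 5, 374 with 6 and 110 with 8, and its dorsal over ventral log2 ratio was 3.17 with 5, 5.13 with 6, 3.70 with 7 and 4.27 with 8. The ratio of Cxcl13 was 5.00 with 5, 6.4 with 6 and 7.38 with 7 but 1.86 with 8, a group of 16 dorsal cells.

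Within the selected cells, keratin amount was used as a range and not as a type. Cells were ordered by their Krt8, Krt18 and Krt19 UMIs after thinning to 8000 UMIs and cut into 3 groups in each library. The dorsal groups held 100 cells with 0 UMIs, 136 with 1 to 2 and 39 with 3 to 8, and the ventral groups 413 with 0 to 1, 232 with 2 to 3 and 269 with 4 to 30. Most dorsal cells thus lay within a few UMIs of each cut. From low to high keratin, Ezr had 111, 158 and 246 CPM in dorsal and 382, 548 and 841 CPM in ventral cells, and Upk1b had 61.2, 110 and 210 CPM in dorsal and 268, 370 and 561 CPM in ventral cells. Krt14 had 0.27, 3.48 and 16.8 CPM in dorsal and 16.8, 34.3 and 105 CPM in ventral cells.

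**Figure D5:**
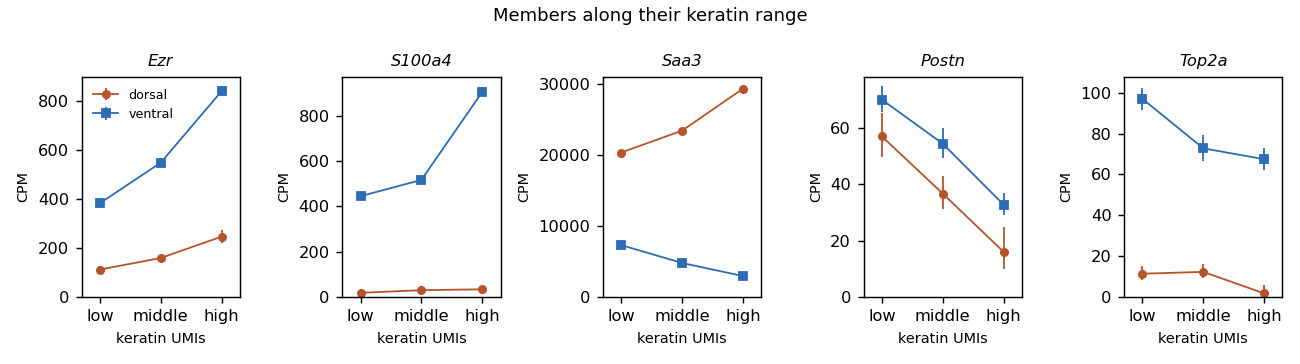
CPM of 5 genes in mesothelial-like cells with low, middle and high keratin UMIs (Krt8, Krt18 and Krt19 after thinning), dorsal and ventral, with 95% counting intervals. Ezr and S100a4 are higher and Postn lower with more keratin in both libraries, whereas Saa3 is higher with more keratin in dorsal cells (29347 CPM in the high group) and lower in ventral cells (2914 CPM).

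Other genes ran with or against the keratin range. S100a4 had 17.2, 28.8 and 32.8 CPM from low to high in dorsal and 445, 517 and 907 CPM in ventral mesothelial-like cells. Postn had 57.1, 36.8 and 16 CPM in dorsal and 70.2, 54.6 and 32.8 CPM in ventral cells. Saa3 had 20341, 23432 and 29347 CPM in dorsal but 7281, 4763 and 2914 CPM in ventral cells, so its order along the range was opposite. The epicardial factor Tbx18 was flat in dorsal cells, at 37.8, 37.8 and 40.8 CPM, and had 26.9, 32.8 and 42.5 CPM in ventral cells. Wfdc17 had 190, 30.6 and 8.0 CPM and Arg1 49.6, 2.24 and 0 CPM from low to high in dorsal cells, where the low group's median depth was 34551.5 UMIs against 27912 and 30451. Cycling cells made up 4%, 2.94% and 0% of the dorsal and 24.9%, 18.5% and 20.8% of the ventral groups.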

How the data were processed

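Pooled cultures, 1 per domain, were profiled with 10x Genomics 3' v3 chemistry. The deposited files hold raw UMI counts per gene and barcode, made by the authors with Cell Ranger 3.0.2 on mm10, per the submitters' processing notes. Barcodes with at least 8000 UMIs and at most 20% mitochondrial UMIs were kept. The members and lists were chosen with earlier results of these data known. Counts were summed over the cells of a class and scaled to CPM. Intervals are exact Poisson for levels, exact conditional binomial for ratios and Clopper-Pearson for shares, all at 95% and for counting error only. PCR and culture add variation that they do not cover. With 1 sample per domain no test was made, and 2-fold at 20 CPM or more served as a description of size. The genes named are the 12 with the largest ratio in each direction between domains, the 12 outside the rule with the largest ratio over the other cells in both libraries and the 6 with the smallest, plus members of the lists. Shares of cells with a UMI are given after thinning to 8000 UMIs unless full depth is named. Doublets were kept in the reported values. Scrublet (scanpy 1.11.5) marked 0% of dorsal barcodes with its automatic threshold, so the 637 highest scores, 7.14%, were taken there, and 544 ventral barcodes, 5.11%, were marked. TMM factors came from edgeR 4.0.16. Gene positions were matched by ID to GENCODE for GRCm38 (389 of 389 IDs asked), and promoter windows to RefSeq. The calculation was tested on simulated data. Some genes of the lists are not reported here.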

Additional observations from a re-analysis of the deposited data

Results flagged for a closer look

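Some genes were higher than in the other cells in one library and lower in the other, by at least 2-fold each way. These differences between libraries were not tested. Tnni1, slow troponin I, had a log2 ratio of mesothelial-like over other cells of -1.19 for dorsal and 1.80 for ventral cells, with 14.3 CPM in dorsal and 25.9 CPM in ventral mesothelial-like cells. F3, which encodes tissue factor, had ratios of -1.33 and 1.07, with 40.8 and 54.2 CPM. Thsd7a had ratios of 1.16 and -1.05, with 29.0 and 10.7 CPM. Myl7, the atrial myosin light chain, had ratios of -3.61 and 1.87, with 8.77 and 61.5 CPM in mesothelial-like cells and 107 and 16.8 CPM in the other cells. Hmmr, a mitotic gene, had ratios of -1.04 and 1.04, with 3.44 and 41.8 CPM.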

How the results depend on the processing

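With 1 library per domain, leaving out a replicate was not possible. No paired analysis was possible because each domain has 1 sample. Of 130 genes followed, 92 were at least 2-fold apart between domains, and 85 of these kept one direction under every alternative run for them. This counts direction alone, and for some genes the size varied widely. The log2 ratio of Calca ran from 2.74 to 8.62 over the alternatives, and that of Cxcl13 from 1.86 to 7.38. TMM scaling shifted the median log2 ratio of all genes to -0.10, against -0.03 as reported. The dorsal share, the ventral share and their log2 ratio were 4.90%, 9.57% and -0.97 with 4 or more genes of the rule, 1.69%, 6.99% and -2.05 with 6 or more, 0.818%, 4.81% and -2.56 after thinning, and 2.34%, 7.68% and -1.71 without cells carrying 3 markers of another class. The ventral share was 8.04% without Scrublet-marked barcodes, and 6.69% with a log2 ratio of -1.16 without cycling cells. For these shares, cycling cells and cells carrying markers of another class were taken from the mesothelial-like cells alone and stayed in the totals. Genes at least 2-fold higher in dorsal cells numbered 382 after thinning, 127 at a minimum of 50 CPM and 2273 with no minimum, and those higher in ventral cells 184 at 50 CPM and 1236 with no minimum. Among list medians, that of uroplakins and mucins rests as reported on 1 gene, Upk1b. That of keratins outside the rule rests on Krt7 and Krt14. With 4 or more genes the rule's genes stood at -0.45. Uroplakins and mucins then stood at 0.56, the opposite sign, while Upk1b itself stood at -2.25. With 6 or more, calcitonin genes stood at 3.44 and cell cycle genes at -3.78. After thinning, uroplakins and mucins stood at -1.19, keratins outside the rule at -2.27, acute phase genes at 2.55, calcitonin genes at 4.25, glycolysis genes at -0.25 and interferon genes at 1.18. Without cells carrying markers of another class, cell cycle genes stood at -3.80. In cells with all 8 genes, a setting chosen after seeing the data, keratins stood at -2.24, regional factors at 1.26, acute phase genes at 1.10 and cell cycle genes at -1.72. Among the 92 genes, those with the opposite sign were Krt19 with 4 or more genes (0.60), with 5 (1.94) and with 6 (0.97), Angpt2 after thinning (0.50), C1qa without Scrublet-marked barcodes (-0.36), without cells of another class (-1.02) and with 6 genes (-0.66), Hoxa5 with 6 genes (-0.018), and Hp (-0.38), Lcn2 (-1.93) and Cxcl10 (-2.82) with all 8. The cause was not tested. The 275 dorsal cells, of which 16 carried all 8 genes, limit how finely the dorsal values can be split.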
